A study of Homo sapiens with 6 samples.

Results

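The 32 genes described here, out of 58735 genes in the count table, mostly serve cholesterol and fatty acid synthesis. Others act in its control by the sterol regulatory element-binding proteins (SREBPs), and 2, *NCEH1* and *STARD4*, in sterol ester hydrolysis and transport. A gene was a member when its name in the table was 1 of the 32 listed names. No measured value entered the rule, but the list was chosen with earlier results of these data known. All 32 passed the filter on low counts. The study made 6 bulk libraries of polyadenylated RNA from OE33, an established cell line derived from human esophageal adenocarcinoma. The 3 control libraries came from untreated cells. The 3 libraries called ABS came from cells exposed for 20 min to 200 µM acidified bile salts in unsupplemented medium at pH 4.0 and then kept for 6 h in complete medium. Which bile salts were used was not stated, no group had acid, bile salts or unsupplemented medium alone, and a medium change for the control cells was neither stated nor denied. The 3 replicates of each group were described as independent, all from 1 line, and the labels did not pair libraries between groups.

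SREBPs are made as membrane proteins of the endoplasmic reticulum, where SCAP, their escort and cholesterol sensor, is held back by INSIG proteins while sterols are plentiful. When sterols run low, SCAP carries SREBP to the Golgi, where proteases release the part that enters the nucleus and binds sterol regulatory elements in promoters. SREBP-2, encoded by *SREBF2*, acts mainly on the cholesterol pathway, and SREBP-1, encoded by *SREBF1*, mainly on fatty acid synthesis. Many cancer lines express both pathways at a high level, and the messenger RNAs of the targets are a common readout of the state of the system.

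Library totals lay between 22145676 and 25235686 counts, and a count of 3, the limit that a count of 0 allows, stood for 0.119 to 0.135 CPM. In this paragraph CPM is the count over the library total, and in the comparisons below it is also scaled by TMM, the trimmed mean of M values. Such limits cover counting error only. All 10 epithelial markers were expressed, with a summed level of 22586 to 24441 CPM in control and 22859 to 23360 CPM in ABS libraries. Of the 8 immune markers, *PTPRC*, *CD3E*, *CD3D* and *NKG7* were at 0 in all libraries, and the list summed to 5.72 to 7.18 CPM in control and 5.64 to 6.53 CPM in ABS libraries. Of the 8 fibroblast markers, *COL1A2*, *DCN* and *THY1* were at 0, and the list summed to 2.80 to 3.22 and 2.74 to 4.01 CPM. In bulk RNA, fewer cells that express a gene and less of its RNA per cell cannot be told apart. Replicate 3 of both groups is given apart from replicates 1 and 2 below, because these 2 libraries were already known to stand apart from the other 4 over the whole transcriptome. The numbers of detected genes moved with that split, with 19362 and 19927 in the replicate 3 libraries of control and ABS against 18127 to 18942 in the other 4.

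The members spanned a wide range of abundance in untreated cells, with genes of fatty acid synthesis at the top. On the TPM scale, which allows for gene length, *SCD*, which encodes the desaturase that makes monounsaturated fatty acids, stood highest at 598 ± 124 TPM (SD, n = 3 control libraries). It ranked 204 among 19951 protein-coding genes. *FASN*, which encodes fatty acid synthase, followed at 323 ± 34.9 TPM, and *ACLY*, which encodes the enzyme that makes cytosolic acetyl-CoA from citrate, at 239 ± 9.91 TPM. The *FASN* and *ACLY* levels did not overlap across control libraries, nor did those of *SCD* and *FASN*. Next came *SQLE*, which encodes squalene epoxidase, at 188 ± 34.9 TPM and *DHCR7*, which encodes the last reductase of one branch of cholesterol synthesis, at 188 ± 46.8 TPM, which did not differ beyond their spread. Both SREBP genes were well expressed, *SREBF2* at 129 ± 15.4 and *SREBF1* at 97.3 ± 14.8 TPM. The lowest members were *MVK* at 14.0 ± 1.96 TPM, *STARD4* at 8.26 ± 0.654 TPM and *FADS2* at 2.65 ± 0.160 TPM. Even *FADS2*, the delta-6 desaturase gene, had 132 to 254 counts per library. Together the 32 genes took 0.536%, 0.529% and 0.407% of the counts in control replicates 1, 2 and 3, and 0.515%, 0.520% and 0.406% in the ABS replicates. This summed share was lowest in replicate 3 of both groups.

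**Figure D1:**
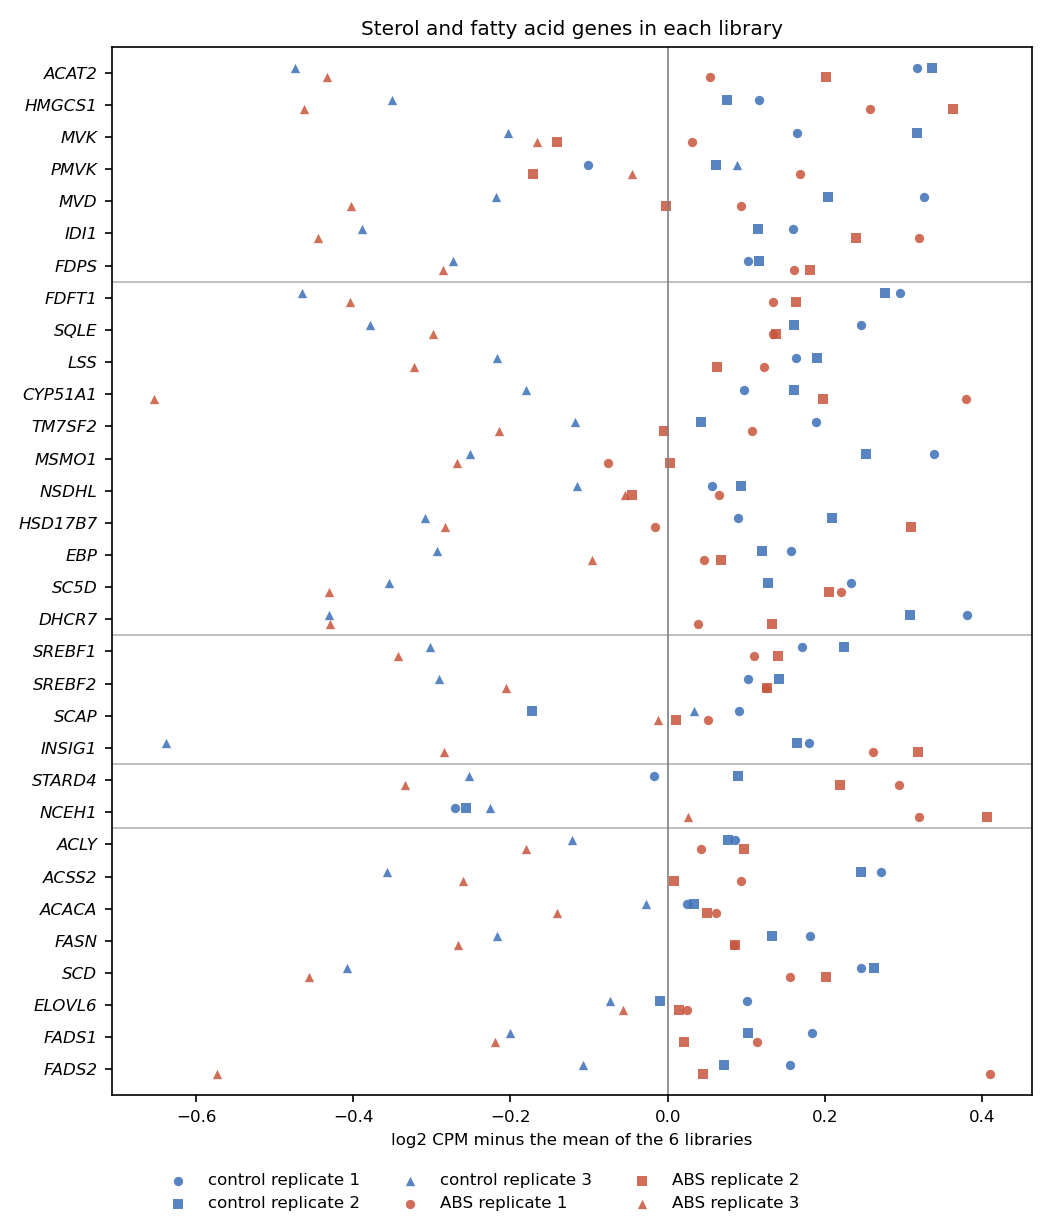
Level of each of the 32 genes in each library as log2 CPM, relative to the gene's mean over the 6 libraries (x axis), with genes grouped by role and separated by horizontal lines; colour marks the group and symbol shape the replicate. For 29 of 32 genes the 2 replicate 3 libraries lie below the other 4, while control and ABS libraries overlap for all genes but *NCEH1*.

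To determine whether the 32 genes differed 6 h after the exposure, ABS was compared with control over all 6 libraries with edgeR's quasi-likelihood test. Of the 32 members 1 rose, and it was 1 of the 2 genes of sterol ester hydrolysis and transport, not of synthesis or SREBP control. *NCEH1*, which encodes a neutral cholesterol ester hydrolase of the endoplasmic reticulum that frees cholesterol from stored esters, was 1.42-fold higher after ABS. It lay at 207, 209 and 213 CPM in control and at 311, 331 and 254 CPM in ABS libraries, a mean of 210 ± 3.22 against 299 ± 39.8 CPM (SD, n = 3 each). Every ABS library was above every control library, and ABS replicate 3 was the lowest of its group. On the log2 scale the difference was 0.51 ± 0.09 (SE, edgeR adjusted p = 0.0344). Of all 13768 genes tested, 0.436% passed this test, 0.37% as higher and 0.0654% as lower. The gene (ENSG00000144959) lies on the minus strand of chromosome 3 from 172630249 to 172711218 on GRCh38. The call ended when any of control replicate 1 (adjusted p = 0.212), control replicate 2 (0.243), ABS replicate 1 (0.271) or ABS replicate 2 (0.19) was left out, with log2 fold changes of 0.50, 0.51, 0.48 and 0.43, and held without control replicate 3 (0.0105) or ABS replicate 3 (0.000658).

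The other 31 members did not pass, and 11 of the 32 log2 fold changes were positive and 21 negative, with a median of −0.03 against −0.00 over all tested genes. This balance turned with the library left out. Positive and negative members numbered 22 and 10 without control replicate 1, 17 and 15 without control replicate 2, and 4 and 28 without control replicate 3. They numbered 6 and 26 without ABS replicate 1 or ABS replicate 2, and 25 and 7 without ABS replicate 3. At an unadjusted p under 0.05, 1 of 32 members passed, against 9.75% of all genes, and *NCEH1* was also the 1 member that passed in DESeq2 and in limma-voom. It was the 1 member whose groups did not overlap, with ABS above control, where 14.5% of all genes did not overlap, 7.57% with ABS above and 6.95% with ABS below. The smallest adjusted p among the other 31 was 0.593, for *MSMO1*. For 29 of these 31 genes the 95% interval of the ABS difference lay within 1.5-fold in either direction. With a model term that sets the replicate 3 libraries apart, the intervals of all 31 lay within 1.5-fold. In that model *NCEH1* was again the 1 member that passed (log2 fold change 0.50, adjusted p = 0.000657), against 3.38% of all genes, and 5 members had an unadjusted p under 0.05, against 15.6% of all genes. The median SE of the members was 0.14 without and 0.07 with that term, against 0.12 and 0.10 over all tested genes.

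**Figure D2:**
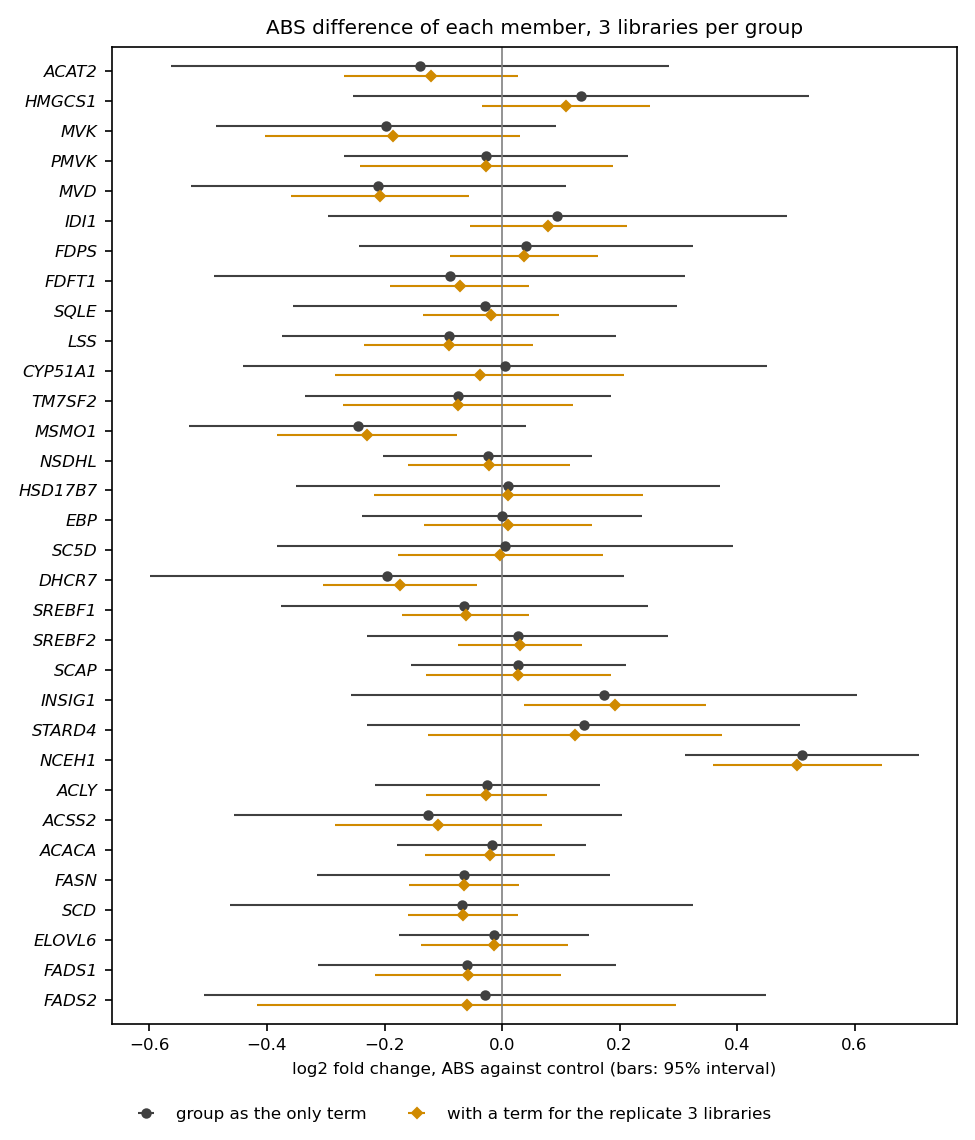
Log2 fold change of ABS against control for each gene (x axis) with its 95% interval, from the model with group as the only term (circles) and with a further term for the replicate 3 libraries (diamonds). Only the *NCEH1* intervals stay above 0 in both; intervals narrow for most genes once replicate 3 has its own term.

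The enzymes of the mevalonate and isoprenoid steps turn acetyl-CoA into farnesyl diphosphate, and 0 of 7 passed the edgeR test after ABS, or the DESeq2 or limma-voom test, with 0 at an unadjusted p under 0.05. *HMGCS1*, the cytosolic HMG-CoA synthase gene and a classical SREBP-2 target, lay at 167, 162 and 120 CPM in control and 184, 198 and 112 CPM in ABS libraries. The ABS values of replicates 1 and 2 were above all control values and that of replicate 3 was below them. The log2 fold change was 0.13 (95% interval −0.25 to 0.52, adjusted p = 0.877). *IDI1*, which encodes the isopentenyl diphosphate isomerase, had the same arrangement at 111, 108 and 76.0 against 124, 118 and 73.1 CPM. *MVD*, which encodes the decarboxylase that yields isopentenyl diphosphate, lay at 67.9, 62.4 and 46.6 against 57.8, 54.1 and 41.0 CPM. Its ABS values were below the control values both within replicates 1 and 2 and in replicate 3, and the log2 fold change was −0.21 (95% interval −0.53 to 0.11, adjusted p = 0.711). *FDPS*, the farnesyl diphosphate synthase gene, differed by 0.04 on the log2 scale (95% interval −0.24 to 0.33).

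Among the genes of the squalene and sterol steps, which build the sterol ring and trim it to cholesterol, 0 of 11 passed the edgeR, DESeq2 or limma-voom test, with 0 at an unadjusted p under 0.05. *MSMO1*, the sterol-C4-methyl oxidase gene, lay at 107, 101 and 71.4 CPM in control and 80.6, 85.1 and 70.5 CPM in ABS libraries. Its replicate 1 and 2 values were lower after ABS, while the replicate 3 values were nearly the same. The log2 fold change was −0.25 ± 0.13 (SE), and *MSMO1* passed the edgeR test when control replicate 3 was left out (−0.41, adjusted p = 0.0238). In that fit replicate 3 was present in ABS only, so the replicate 3 difference and the ABS difference were mixed. There 28 members had negative and 4 positive log2 fold changes, with a median of −0.13. *DHCR7* had a like arrangement at 255, 242 and 145 CPM in control and 201, 214 and 145 CPM in ABS libraries, with a log2 fold change of −0.20 (adjusted p = 0.804). *SQLE* and *FDFT1*, which encodes squalene synthase, the first step committed to sterols, had log2 fold changes of −0.03 and −0.09. The remaining 7 genes of these steps were between −0.09 and 0.01.

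The genes that control SREBP did not pass either, 0 of 4 with edgeR, DESeq2 or limma-voom and 0 at an unadjusted p under 0.05. *SREBF2* lay at 286, 294 and 218 CPM in control and 291, 291 and 232 CPM in ABS libraries, a log2 fold change of 0.03 (95% interval −0.23 to 0.28). *SREBF1* lay at 232, 241 and 167 against 222, 227 and 162 CPM, a log2 fold change of −0.06 (−0.38 to 0.25). *SCAP* differed by 0.03. *INSIG1*, which encodes the retention protein and is itself an SREBP target, lay at 62.8, 62.2 and 35.6 CPM in control and 66.4, 69.1 and 45.5 CPM in ABS libraries. Its ABS values were above the control values both within replicates 1 and 2 and in replicate 3, but the replicates of each group spread more widely than the groups differed (log2 fold change 0.17, adjusted p = 0.85). With the replicate 3 term its estimate was 0.19 (95% interval 0.04 to 0.35, adjusted p = 0.196).

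All 8 genes of fatty acid synthesis and desaturation had log2 fold changes at or below 0, from −0.13 for *ACSS2* to −0.01 for *ELOVL6*, and 0 of 8 passed with edgeR, DESeq2 or limma-voom, with 0 at an unadjusted p under 0.05. *SCD* lay at 993, 1005 and 632 CPM in control and 933, 963 and 611 CPM in ABS libraries. The log2 fold change of *SCD* was −0.07, with an interval of −0.46 to 0.33 that narrowed to −0.16 to 0.03 with the replicate 3 term. *FASN* lay at 906, 876 and 688 against 847, 848 and 664 CPM, a log2 fold change of −0.07 (95% interval −0.32 to 0.18). For both genes the ABS values were a little below the control values within replicates 1 and 2 and in replicate 3, by less than the distance from replicate 3 to the other replicates. *STARD4*, which encodes a sterol carrier protein of the cytosol, differed by 0.14 (95% interval −0.23 to 0.51).

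Within replicates 1 and 2 alone, with 2 libraries per group, 5 members passed where 13.2% of 13773 genes tested did, 7.83% as higher and 5.33% as lower. *NCEH1* (log2 fold change 0.63, edgeR adjusted p = 7.14e-11) and *HMGCS1* (0.21, 0.00665) were higher. *MSMO1* (−0.33, 0.000412), *DHCR7* (−0.26, 0.000731) and *ACAT2* (−0.20, 0.0396), whose product, the cytosolic thiolase, starts the mevalonate pathway, were lower. In the replicate 3 pair, with 1 library per group and so no test, the log2 differences of these 5 were 0.25, −0.11, −0.02, 0.00 and 0.04. The difference between the 2 parts of the design was then tested as an interaction, which 2.38% of all genes passed. Of the 32 members, *NCEH1* passed (interaction −0.37 ± 0.09, SE, adjusted p = 0.0125), so its ABS difference was smaller in the replicate 3 pair. The replicate 3 pair alone gave *NCEH1* a ratio of 1.19, with an interval of 1.15 to 1.24 that covers counting error in 1 library per group and no spread between libraries. *HMGCS1* (−0.33, adjusted p = 0.0701), *CYP51A1* (−0.64, 0.0626), *MSMO1* (0.32, 0.166) and *DHCR7* (0.26, 0.154) did not pass. *HMGCS1* and *CYP51A1*, the lanosterol demethylase gene, did pass under a robust variance fit (adjusted p = 0.0375 and 0.0409). They also passed when 1 library was left out, *HMGCS1* without ABS replicate 1 (0.0243) and *CYP51A1* without ABS replicate 2 (0.0182). The single replicate 3 libraries were assumed here to vary like the others.

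**Figure D3:**
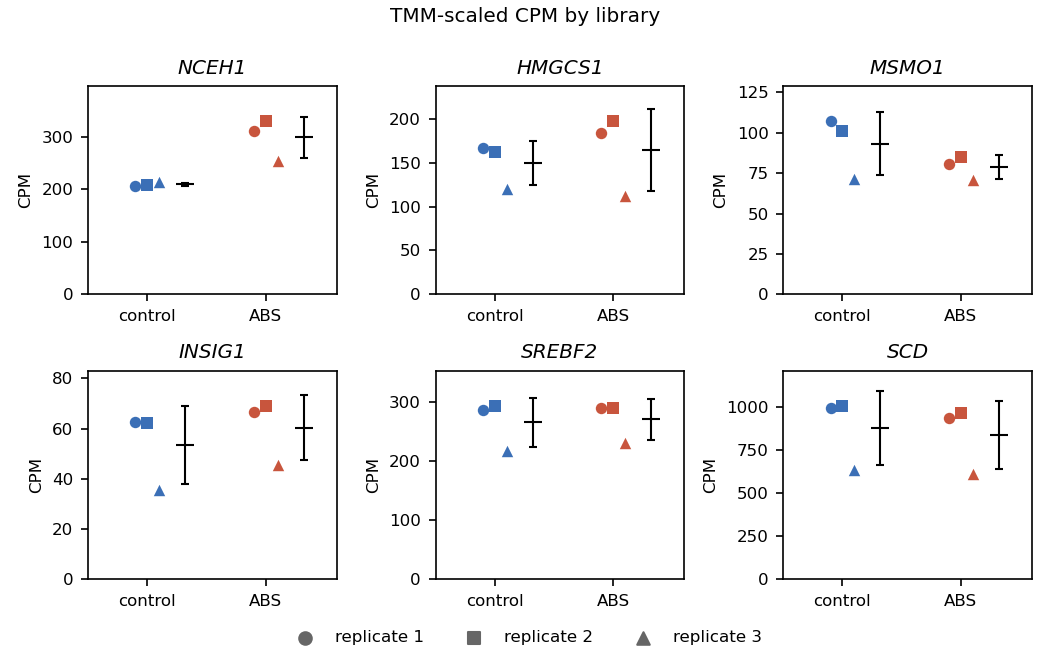
TMM-scaled CPM (y axis, from 0) of 6 genes in each control and ABS library, with symbol shape for the replicate and a bar and whisker for the mean ± SD of 3 libraries. *NCEH1* is higher in all ABS libraries; in *HMGCS1*, *MSMO1*, *INSIG1*, *SREBF2* and *SCD* the replicate 3 points are the lowest of each group.

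The larger pattern in these genes was between replicates. Replicate 3 was compared with replicates 1 and 2 with group as a term, 2 libraries against 4. The split was chosen with the separation of these libraries already known, and the members with earlier results of these data known. The counts below are therefore a description and not an independent test of the set. Of the 32 members 23 (71.9%) were lower in replicate 3 at an edgeR adjusted p under 0.05, where 7.64% of all tested genes passed, 3.53% as lower and 4.11% as higher. At an unadjusted edgeR p under 0.05, 27 were lower and 0 higher, against 10.8% and 11.5% of all tested genes. The median difference was −0.43 on the log2 scale, against 0.01 over all tested genes. For 29 members both replicate 3 libraries lay below the other 4, against 14.4% of all genes, and the exceptions were *PMVK*, *SCAP* and *NCEH1*. The mitochondrial share of counts was 1.91% in control replicate 3 against 2.48% and 2.57% in the other controls, and 2.09% in ABS replicate 3 against 2.07% and 2.26%. That share and the number of detected genes moved in part with the split, and their part in these differences was not tested.

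**Figure D4:**
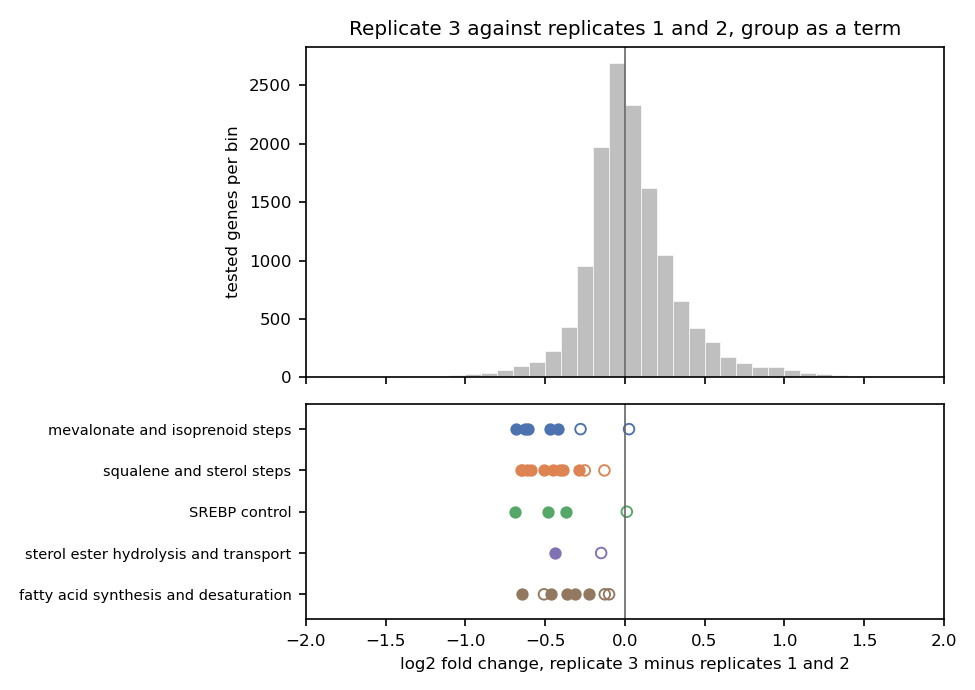
Upper panel, number of tested genes (y axis) by log2 difference of replicate 3 from replicates 1 and 2 (x axis, bins of 0.1, with genes beyond −2 or 2 in the end bins); lower panel, the 32 genes by role on the same x axis, filled where the edgeR adjusted p is under 0.05. The genes lie to the left of the bulk of the transcriptome, with a median of −0.43 against 0.01.

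In the mevalonate steps 5 of 7 genes were lower in replicate 3, with a median log2 difference of −0.47. *ACAT2* had one of the largest differences, at 100, 101 and 57.9 CPM in control and 83.4, 92.4 and 59.5 CPM in ABS libraries. Its replicate 3 values were 37.6% lower (log2 difference −0.68 ± 0.08, SE, adjusted p = 0.000111). *HMGCS1* was 34.4% lower, *IDI1* 35.2%, *MVD* 27.6% and *FDPS*, at 94.0, 94.9 and 72.5 against 97.9, 99.3 and 71.8 CPM, 25.3%. The kinase genes did not pass. *MVK*, the mevalonate kinase gene, had both replicate 3 libraries below the other 4 and a log2 difference of −0.28 (adjusted p = 0.14), and *PMVK*, the phosphomevalonate kinase gene, lay at 25.9, 29.0 and 29.6 CPM in control and 31.3, 24.7 and 27.0 CPM in ABS libraries, a log2 difference of 0.03 (adjusted p = 0.921).

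In the squalene and sterol steps 9 of 11 genes were lower, with a median of −0.45. *FDFT1* lay at 251, 248 and 148 CPM in control and 225, 229 and 155 CPM in ABS libraries, and its replicate 3 values were 36.3% lower (log2 difference −0.65 ± 0.06, SE, adjusted p = 4.06e-05). *SQLE* lay at 256, 242 and 166 against 237, 238 and 176 CPM, 29.7% lower in replicate 3. These are the 2 enzymes at the entry to the sterol branch. *DHCR7* was 36.0% lower (adjusted p = 7.29e-05), *CYP51A1* 34.7%, *SC5D*, the lathosterol desaturase gene, 33.5%, and *LSS*, which encodes the cyclase that closes the sterol ring, 24.4%. *MSMO1* was 23.6% lower, *HSD17B7*, which encodes a sterol 3-ketoreductase, 26.7%, and *EBP*, the sterol isomerase gene, 18.2%. The 2 genes that did not pass were *NSDHL*, whose product removes C4 groups with *MSMO1* and *HSD17B7* (log2 difference −0.13, adjusted p = 0.299), and *TM7SF2*, which encodes one of the sterol C14 reductases (−0.25, 0.139).

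Of the SREBP control genes 3 of 4 were lower in replicate 3. *INSIG1* had the largest difference of all 32 members, 38.0% lower (log2 difference −0.69 ± 0.08, SE, adjusted p = 0.000148), and ranked 216 from the bottom among the 13768 genes. *SREBF1* was 28.5% lower (adjusted p = 0.00013) and *SREBF2* 22.7% lower (0.000792). *SCAP*, in contrast, lay at 75.0, 62.5 and 72.1 CPM in control and 73.0, 71.0 and 69.9 CPM in ABS libraries, a log2 difference of 0.01 (adjusted p = 0.95). In sterol ester hydrolysis and transport, *STARD4* was 26.3% lower (adjusted p = 0.0463), at 13.1, 14.1 and 11.1 against 16.3, 15.4 and 10.5 CPM. This call ended with libraries scaled by size alone (0.0733) and held in 1 of 6 fits with a library left out. *NCEH1* did not pass (log2 difference −0.15, adjusted p = 0.238), and it was the ABS library that was low, since control replicate 3 was the highest of its group.

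In fatty acid synthesis and desaturation 5 of 8 genes were lower, with a median of −0.34. *SCD* was 36.2% lower in replicate 3 (log2 difference −0.65 ± 0.05, SE) and had the smallest adjusted p of the 32 members, 4.06e-06. *FASN* was 22.2% lower (adjusted p = 0.000379), *ACSS2*, which encodes the cytosolic acetyl-CoA synthetase, 27.3% (0.00658), *FADS1*, the delta-5 desaturase gene, 19.6% (0.0264) and *ACLY* 14.6% (0.0151). *ACACA*, which encodes acetyl-CoA carboxylase, lay at 231, 232 and 223 CPM in control and 237, 235 and 206 CPM in ABS libraries, a log2 difference of −0.13 (adjusted p = 0.194). *ELOVL6*, the elongase gene for C16 fatty acids, had −0.10 (0.38), and *FADS2*, with the widest error, −0.51 (0.105). *ELOVL6* and *ACACA* had the smallest differences of the 8 genes and *SCD* the largest, although no test between genes was made.

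The same difference was present in each group taken alone, and these 2 estimates share no library. Each sets the single replicate 3 library of its group against replicates 1 and 2. The split was chosen with both replicate 3 libraries known to stand apart, so the likeness of the groups is a description and not an independent test. Of the 32 members, 29 (90.6%) were lower in replicate 3 in both control and ABS cells, against 30.2% of all tested genes, with medians of −0.42 in control and −0.42 in ABS cells and of 0.00 and 0.00 over all genes. *SCD* differed by −0.66 in control and −0.63 in ABS cells, and *SREBF1* by −0.50 and −0.47. The difference was larger in control cells for *INSIG1* (−0.81 and −0.57), *ACAT2* (−0.80 and −0.56) and *DHCR7* (−0.78 and −0.52), and larger in ABS cells for *CYP51A1* (−0.31 and −0.95) and *HMGCS1* (−0.45 and −0.77). None of these 5 contrasts passed the interaction test without the robust fit and with all libraries. Across the 32 genes the 2 sets of differences had a Pearson correlation of 0.479, against 0.13 across all tested genes. These are correlations across genes, which are not independent replicates.

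**Figure D5:**
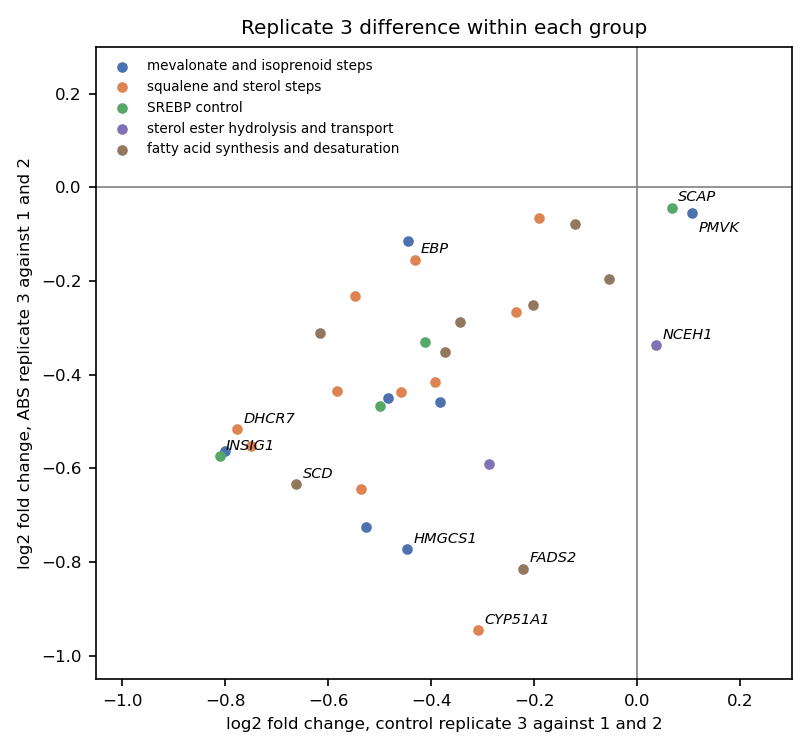
Log2 difference of replicate 3 from replicates 1 and 2 in control cells (x axis) and in ABS cells (y axis) for the 32 genes, coloured by role. The points of 29 genes lie below 0 on both axes, and *CYP51A1* and *FADS2* lie farther below 0 in ABS than in control cells.

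When each library was left out in turn, between 18 and 21 members passed as lower and 0 as higher in every one of the 6 fits. The 15 genes that passed in all 6 fits were *ACAT2*, *HMGCS1*, *IDI1*, *MVD*, *FDPS*, *FDFT1*, *SQLE*, *LSS*, *SC5D*, *DHCR7*, *SREBF1*, *SREBF2*, *INSIG1*, *FASN* and *SCD*. The call of *MSMO1* (adjusted p = 0.0595) and *ACSS2* (0.0666) ended without control replicate 3, that of *CYP51A1* (0.123) without ABS replicate 3, and that of *ACLY* without control replicate 1 (0.0748) or ABS replicate 2 (0.0593). *FADS1* passed in 3 of 6 fits and lost its call when control replicate 1 (0.0998), control replicate 3 (0.0868) or ABS replicate 1 (0.0850) was absent. *HSD17B7*, *EBP* and *STARD4* each passed in 1 of 6, without ABS replicate 1, ABS replicate 3 and control replicate 3. Some members without a call over all 6 libraries gained a call, also as lower, in fits with a single replicate 3 library. These were *NCEH1* (log2 difference −0.34), *FADS2* (−0.82) and *ACACA* (−0.20) without control replicate 3, and *MVK* (−0.45) without ABS replicate 3. When libraries were scaled by their size alone, 20 members were lower, without *STARD4*, *EBP* (adjusted p = 0.0602) and *FADS1* (0.0575), and the split over all genes moved from 566 higher and 486 lower to 960 higher and 274 lower, with a median over all genes of 0.06 and over the members of −0.37.

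The promoters of members that passed the replicate 3 test, and of members that did not, were read for letters that SREBP and its usual partner factors bind. RefSeq windows from 250 bases before to 50 after a transcript start (GRCh38.p14) were found for 28 of the 32 members. The others were *ACAT2*, *FDFT1*, *SQLE* and *FASN*. The runs below come from 5 genes that passed as lower in replicate 3 (*SREBF2*, *INSIG1*, *SCD*, *MSMO1* and *MVD*) and from *NSDHL* and *NCEH1*, which did not pass. They cover only bases before both the RefSeq start and the gene's first base in the count table. Capitals mark the core letters CACNCCAC of the sterol regulatory element, or its full motif of 10 bases, and the NF-Y letters CCAAT, on either strand (CCAAT reads ATTGG on the other strand).
SREBF2 (chr22:41832961-41833013, plus strand): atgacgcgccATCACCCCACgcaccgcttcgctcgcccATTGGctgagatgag
INSIG1 (chr7:155297660-155297722, plus strand): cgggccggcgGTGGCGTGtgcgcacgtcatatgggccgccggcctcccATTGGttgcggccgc
SCD (chr10:100346994-100347061, plus strand): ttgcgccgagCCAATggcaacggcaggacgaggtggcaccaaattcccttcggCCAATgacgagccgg
MSMO1 (chr4:165327474-165327607, plus strand): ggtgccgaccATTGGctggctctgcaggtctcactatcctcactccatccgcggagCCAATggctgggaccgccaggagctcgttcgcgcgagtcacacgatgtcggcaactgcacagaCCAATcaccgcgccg
MVD (chr16:88663162-88663260, minus strand): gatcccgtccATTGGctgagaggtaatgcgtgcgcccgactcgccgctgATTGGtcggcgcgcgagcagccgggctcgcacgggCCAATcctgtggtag
NSDHL (chrX:152830825-152830966, plus strand): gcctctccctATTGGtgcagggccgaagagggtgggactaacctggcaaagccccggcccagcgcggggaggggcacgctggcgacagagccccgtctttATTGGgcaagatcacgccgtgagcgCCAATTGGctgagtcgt
NCEH1 (chr3:172711219-172711317, minus strand): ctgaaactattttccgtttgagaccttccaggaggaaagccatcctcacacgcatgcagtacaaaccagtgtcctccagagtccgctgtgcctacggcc

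In the *SREBF2* run 18 bases separate the sterol regulatory element letters from ATTGG, and in the *INSIG1* run 30 bases do. The *SCD*, *MSMO1* and *MVD* runs hold 2, 3 and 3 copies of the CCAAT letters and no sterol regulatory element letters. The full RefSeq window of *SCD*, however, has the core letters CACNCCAC on the other strand, at position −114 from the start. *NSDHL*, whose replicate 3 values were below the others without passing the test, holds 4 copies of the CCAAT letters. The run of *NCEH1* holds neither, although its full RefSeq window has CCAAT letters nearer the start. The printed runs are a selection of those read. Among other genes that passed as lower, the *SREBF1* run and the *IDI1* run at chr10:1056705-1056804 also hold neither. The unprinted runs of *FDPS*, *HSD17B7*, *HMGCS1*, *STARD4* and *LSS* and the other *IDI1* run hold CCAAT letters.

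Over whole windows and both strands, CCAAT was found in 22 of 28 members (78.6%), against 42.9% of the 9766 tested genes with a window and 34.6% of all 35116 windows. Members and tested genes were counted per gene, with a match in any window of the gene, while the last share is per single window. CACNCCAC was found in 6 members (21.4%), *SREBF2*, *INSIG1*, *IDI1*, *SCD*, *SC5D* and *ACACA*, against 7.59% and 5.87%. The full motif of 10 bases, which contains this core, was found in 1 member, *SREBF2* (3.57%), against 0.174% and 0.154%. The GC-box letters GGGCGG were found in 26 members (92.9%), against 77.5% and 45.0%, and the E-box letters CACGTG in 4 (14.3%), against 13.0% and 7.26%. Among the 19 members with a window that passed as lower in replicate 3, 16 held CCAAT and 5 held CACNCCAC, and among the 9 others 6 and 1 did. These are matches of letters in a fixed window and were not measured as bound sites.

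The other genes of sterol and lipid handling were described from 6 further lists with 81 tested genes. After ABS 0 of 81 passed in edgeR, DESeq2 or limma-voom, and 5 had an unadjusted edgeR p under 0.05, all lower, against 9.75% of all genes. Within replicates 1 and 2 alone 10 of the 81 passed, against 13.2% of all genes. Higher were *NPC1* (log2 fold change 0.29, edgeR adjusted p = 0.00114), *LIPA* (0.18, 0.0349) and *MBTPS2* (0.30, 0.0472). Lower were *SLC25A1* (−0.28, 0.000278), *CYB5B* (−0.24, 0.000483), *PLIN2* (−0.37, 0.000539), *TMEM97* (−0.23, 0.00222), *GRAMD1A* (−0.47, 0.00275), *HILPDA* (−0.58, 0.0392) and *INSIG2* (−0.26, 0.0491). With the replicate 3 term 3 of the 81 passed, against 3.38% of all genes. With group as the only term and all 6 libraries, the smallest edgeR adjusted p of the 81 was 0.237, for *GRAMD1A*. This gene, which encodes a carrier of sterol from the plasma membrane, lay at 30.3, 30.7 and 31.9 CPM in control and 20.1, 23.9 and 27.6 CPM in ABS libraries. In replicate 3, 15 of the 81 (18.5%) were lower and 1 higher, against 3.53% and 4.11% of all tested genes. The median log2 difference was −0.09. The same shares of all tested genes are the comparison for each list below.

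Of 12 other isoprenoid and sterol genes 4 were lower in replicate 3, *CYB5B* (log2 difference −0.51, edgeR adjusted p = 0.000337), *MMAB* (−0.50, 0.00191), *ERG28* (−0.41, 0.0119) and *TMEM97* (−0.27, 0.0117). *CYB5B* lay at 606, 594 and 376 CPM in control and 504, 516 and 400 CPM in ABS libraries. It also passed the interaction test described for the members. Its log2 fold change after ABS was −0.24 within replicates 1 and 2 and 0.09 in the replicate 3 pair, which has 1 library per group. *ERG28* encodes a scaffold of the C4 demethylation complex. *MMAB* shares its locus with *MVK*, on the opposite strand. Of 14 genes of sterol uptake, transport and storage 3 were lower, *LIPA*, the lysosomal acid lipase gene (−0.44, 0.000907), *NPC1*, which encodes the protein that exports cholesterol from lysosomes (−0.40, 0.00288), and *SOAT1*, which encodes an enzyme that esterifies cholesterol (−0.33, 0.0131). Of 18 other fatty acid genes 3 were lower, *ACSL3*, *HSD17B12* and *SLC25A1*, the citrate carrier gene (−0.24, 0.0262). Of 13 glycerolipid and lipid droplet genes 2 were lower, *LPIN1* (−0.44, 0.00753) and *PLIN2*, which encodes a lipid droplet coat protein (−0.35, 0.0117).

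Of 14 genes that process or degrade SREBP, SCAP or INSIG proteins 2 were lower in replicate 3, *ERLIN2* (−0.27, edgeR adjusted p = 0.0329) and *VCP* (−0.25, 0.0107), and the median was −0.03. Of 10 genes of the sterol-sensing liver X receptors, their partners and targets, 1 was lower and 1 higher, against 3.53% and 4.11% of all tested genes. The lower was *NRIP1* (−0.32, 0.0133) and the higher *NCOR1* (0.24, 0.0327), both encoding co-regulators, and the median of the list was 0.15.

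Some members share sequence or position with other expressed genes, and the strand setting of the counting was not stated. *ACAT2* overlaps *TCP1*, which had 9841 to 11827 counts per library, *SREBF1* overlaps *RAI1*, *MVK* overlaps *MMAB*, and *FADS1* overlaps *FADS2*, all on opposite strands. Reads in the shared bases cannot be assigned to one or the other without strand. *TM7SF2* overlaps *VPS51* and *FADS2* overlaps *FEN1* on the same strand. Of the processed pseudogenes of members, *CYP51A1P2* had 8 to 48 counts against 441 to 878 for *CYP51A1*, so that gene's level carries some uncertainty from reads that fit both copies.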

How the data were processed

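The deposited table held raw counts per gene, 1 column per library, with gene length. Per the submitters' processing notes, HISAT2 2.0.5 and featureCounts 1.5.0-p3 were used with GRCh38. The annotation release and strand setting were not given in the sources used here, and 58724 of 58735 genes had the coordinates of GENCODE release 29. From the counts, genes were kept by filterByExpr (minimum count 10, minimum total 15), scaled by TMM and tested with the quasi-likelihood F-test of edgeR 4.0.16 in R 4.3.3. Benjamini-Hochberg adjustment covered all 13768 genes tested, with a threshold of 0.05. Each SE was derived from the log2 fold change and its F statistic, and intervals are 95%. TPM was computed here from counts and gene length, over all genes of the table. The tests were group alone (3 against 3 libraries), replicate 3 against replicates 1 and 2 with group as a term, and their interaction. The scripts were tested on simulated data. Alternatives were other scaling, no filter, a robust fit, DESeq2 1.42.0, limma-voom (limma 3.58.1), a replicate block, a replicate 3 term, replicates 1 and 2 alone and each library left out.

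The members and lists were chosen with earlier results of these data known. *ACAT2* was moved from the group of sterol esters and transport to the mevalonate steps after the design was written, since its product is the cytosolic thiolase. All 32 members were named. From the further lists, genes past the threshold within replicates 1 and 2, in the replicate 3 comparison or in the interaction were named. Those that passed after ABS with the replicate 3 term were counted but not named for that fit. Where none passed, up to 2 with the smallest adjusted p were to be named, of which 1 is given for the ABS comparison over all libraries. Other genes were named for overlap or as markers. Promoter windows were taken from RefSeq, and where a gene had several windows, any match counted.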

Additional observations from a re-analysis of the deposited data

Results flagged for a closer look

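In the main fit *NCEH1* was the 1 of 32 members whose ABS difference itself differed between the parts of the design, where 2.38% of all genes passed. *HMGCS1* and *CYP51A1* also passed with a robust fit, so this count depended on the fit. The *NCEH1* log2 fold change was 0.63 within replicates 1 and 2, against 0.25 in the replicate 3 pair, a difference of −0.37 ± 0.09 (SE, edgeR adjusted p = 0.0125). The control libraries lay together at 207, 209 and 213 CPM, and ABS replicate 3, at 254 CPM, was below ABS replicates 1 and 2 at 311 and 331 CPM. The replicate 3 side rests on 1 library per group, and the 2 residual degrees of freedom of the test came from replicates 1 and 2. Groups of 3 libraries were too small for a check of single outlying samples.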

How the results depend on the processing

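Over all genes, 60 passed after ABS, against 35 with library size alone, 409 without a filter, 233 in DESeq2, 350 with the replicate block, 465 with the replicate 3 term, 1813 within replicates 1 and 2 and 12 to 438 with 1 library left out. Of the members 1 passed after ABS, 5 within replicates 1 and 2 and 0 to 2 with 1 library left out. In replicate 3 the counts over all genes were 1052 and 366 to 1379 with 1 library left out, and over the members 23 and 18 to 21. For the interaction 1 member passed, 3 with a robust fit and 1 to 2 with 1 library left out, and it could not be fitted without a replicate 3 library. No alternative gave a member that passed the opposite sign. The cause of these differences was not tested. Same-numbered libraries had correlations of deviations of 0.0748, 0.0955 and 0.258 over 12266 genes, so the numbers were not taken to pair libraries, and not every library correlated best with its own number. With the replicate block *NCEH1* remained the 1 member called (adjusted p = 0.00146). Depth and 3 libraries per group left intervals within 1.5-fold for 29 of the 31 other members after ABS, and smaller differences may lie inside them.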
